A study of Mus musculus with 8 samples.

Results

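Cultured mouse mesangial cells (MMC) were profiled by total RNA sequencing in 2 libraries per genotype, lettered A and B, and the letters were compared within each genotype to describe which pathways vary between cultures. The comparison used 4 libraries, WT A, WT B, miR-379KO A and miR-379KO B, of the 8 libraries of the series. These were chosen by assay and letter, and, like the gene lists below, with earlier results of these data known. The other 4 libraries hold RNA recovered with an AGO2 antibody from the same genotypes and letters, and are used only where stated. All libraries came from primary MMC of kidney glomeruli of C57BL/6J mice, grown untreated in RPMI medium with foetal bovine serum. WT mice were unedited, and miR-379KO mice carried a germline CRISPR-Cas9 nickase deletion at miR-379 and no further allele or agent is given. The age of the mice, the passage of each culture within the range the methods state and whether a letter marks a separate mouse, preparation or day were not given, and the study calls A and B independent samples. Each letter is 1 library per genotype, so a difference within a genotype has no replicate check, and any spread given is the counting error of 2 libraries.

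Mesangial cells are contractile, pericyte-like cells that hold the capillary loops of the glomerulus, lay down its matrix and divide readily in culture. Primary cultures are started from sieved glomeruli and can carry other kidney cells along, among them tubular epithelium, podocytes, endothelium and macrophages. Several programmes are known to follow the state of a culture. ATF4 is a transcription factor translated under amino acid shortage or other stress, and it induces amino acid transporters, serine and glycine synthesis and aminoacyl-tRNA synthetases. Immediate early genes such as Fos and Egr1 are induced within minutes by serum, handling or growth factors, and ERK feedback genes follow them. Ribosomal protein mRNAs follow growth, and cell cycle genes follow the share of dividing cells. In bulk RNA, more cells of one kind and more RNA per cell cannot be told apart.

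The 4 libraries held between 17168230 and 22660743 gene counts. The targeted microRNA gene, Mir379, had 0 counts in each, so the genotype labels could not be checked with it. Vim and Acta2, listed here as a mesangial and a contractile gene, were abundant in every library. Vim lay between 88635 and 154731 counts and Acta2 between 115436 and 243929. The whole mesangial and pericyte list summed to 6076 to 7939 CPM, most of it Vim. Of its 12 members 1 did not pass the filter on low counts, and others differed widely between libraries, as described below. The defining podocyte marker Nphs1 had at most 4 counts, endothelial Pecam1 and Cdh5 at most 6, and the pan-leukocyte marker Ptprc at most 7. Other members of these lists were detected. Summed over a list, podocyte markers lay between 244 and 634 CPM, most of it Synpo. Endothelial markers summed to 8.16 to 18.7 CPM, leukocyte markers to 1.97 to 6.08 CPM and tubular epithelial markers to 117 to 172 CPM. The precursor ribosomal RNA gene Rn45s took 9.26% of gene counts in WT A against 4.52% in WT B, and 5.63% in miR-379KO A against 7.04% in miR-379KO B, so its order between letters was turned between genotypes. Of uniquely placed reads, 8.81% lay outside genes in WT A and 6.41% to 6.78% in the other libraries. The part of both measures in the differences below was not tested.

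Differences are given as log2 CPM, B minus A, where CPM is a gene's count relative to the library total scaled by its TMM factor. In all, 12321 genes passed the filter on low counts. The letters differed more in WT than in miR-379KO, with a median absolute difference of 0.40 in WT and 0.22 in miR-379KO. At 2-fold or more, 651 genes (5.28% of those tested) were higher and 727 (5.9%) lower in WT B than in WT A. In miR-379KO, 163 genes (1.32%) were higher and 573 (4.65%) lower in B. Across the 12321 genes the differences of both genotypes had a Pearson correlation of −0.21 and a Spearman correlation of 0.10, which describes genes that share libraries and are not independent replicates.

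**Figure D1:**
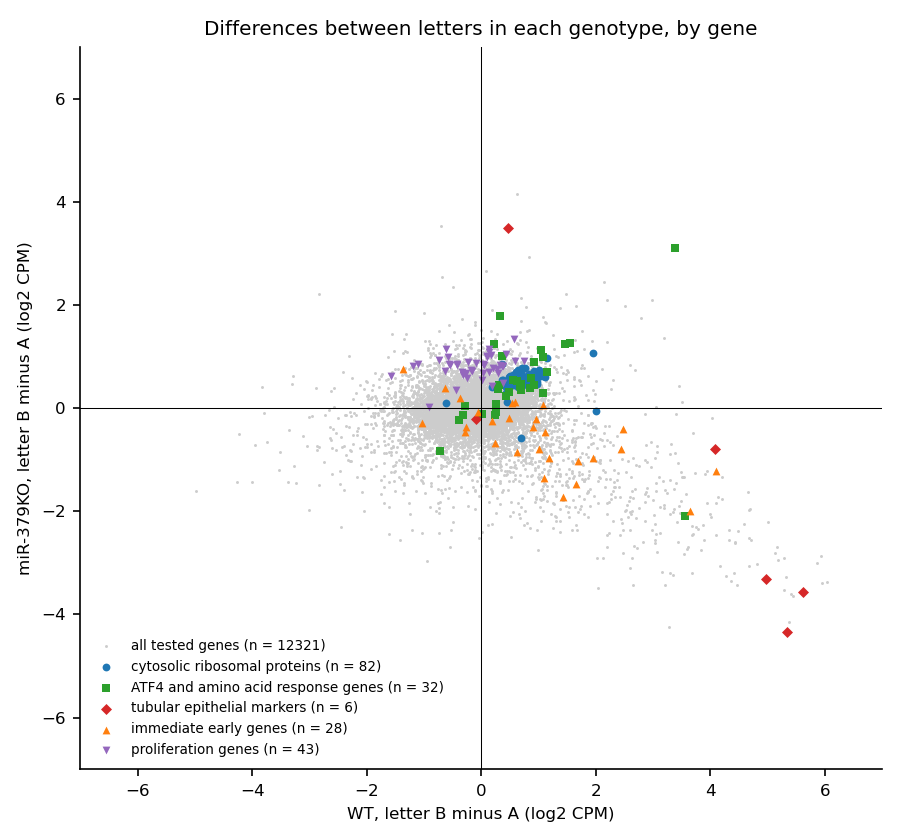
Difference between letters in WT (x axis) and miR-379KO (y axis), in log2 CPM, with 1 grey point per tested gene (12321) and members of 5 gene lists in colour. Most ribosomal protein and ATF4 genes sit in the upper right, 4 of 6 tubular epithelial markers and many immediate early genes in the lower right, and proliferation genes above 0 on the y axis but on both sides of 0 on the x axis.

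No gene passed a test of the letter over both genotypes. In edgeR's quasi-likelihood test with genotype as a block, 0 of 12321 genes (0%) had a Benjamini-Hochberg adjusted p-value under 0.05, and the smallest adjusted p-value was 0.779. The fit had 1 residual degree of freedom. Without adjustment, 415 genes higher in B (3.37%) and 345 lower in B (2.8%) had a p-value under 0.05, and no call was made with limma voom. The study's cutoff, 1.5-fold with an unadjusted p-value under 0.05, held 303 genes higher in B (2.46%) and 291 lower (2.36%). DESeq2 assigned an adjusted p-value to 617 genes and called 34 of them, 24 higher and 10 lower in B. Without the filter on low counts edgeR called 7 genes, among them Slc7a3, Trib3, Psat1, Krt19, Cdsn and Fbln2, all 6 higher in B. Because no call was made in the test as fitted, all that follows describes these libraries.

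Genes that moved the same way in both genotypes were counted at 1.5-fold or more in each. They numbered 190 higher in B (1.54% of tested genes) and 268 lower in B (2.18%). Genes that moved in opposite directions were more numerous, with 488 (3.96%) higher in WT B and lower in miR-379KO B, and 126 (1.02%) the reverse. The letters are only names, and letter B of one genotype need not correspond to letter B of the other.

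ATF4 and amino acid response genes were mostly higher in B in both genotypes. The list of 32 genes, all of which passed the filter, had a median difference of 0.59 in WT and 0.44 in miR-379KO, where the median of all genes was 0.00 in both. At 1.5-fold, 16 members were higher and 1 lower in WT B, against 14.7% and 17.7% of all genes. In miR-379KO B, 11 were higher and 2 lower, against 5.96% and 9.39% of all genes. Of the 32, 8 reached 1.5-fold higher in both, against 1.54% of all genes. In the edgeR test, 17 had an unadjusted p-value under 0.05 in the higher direction, against 3.37% of all genes. With 1 library left out the genotype block could not be kept, and without the block the number was 16 with all libraries, 9 without WT B and 13 to 17 without any other library.

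**Figure D2:**
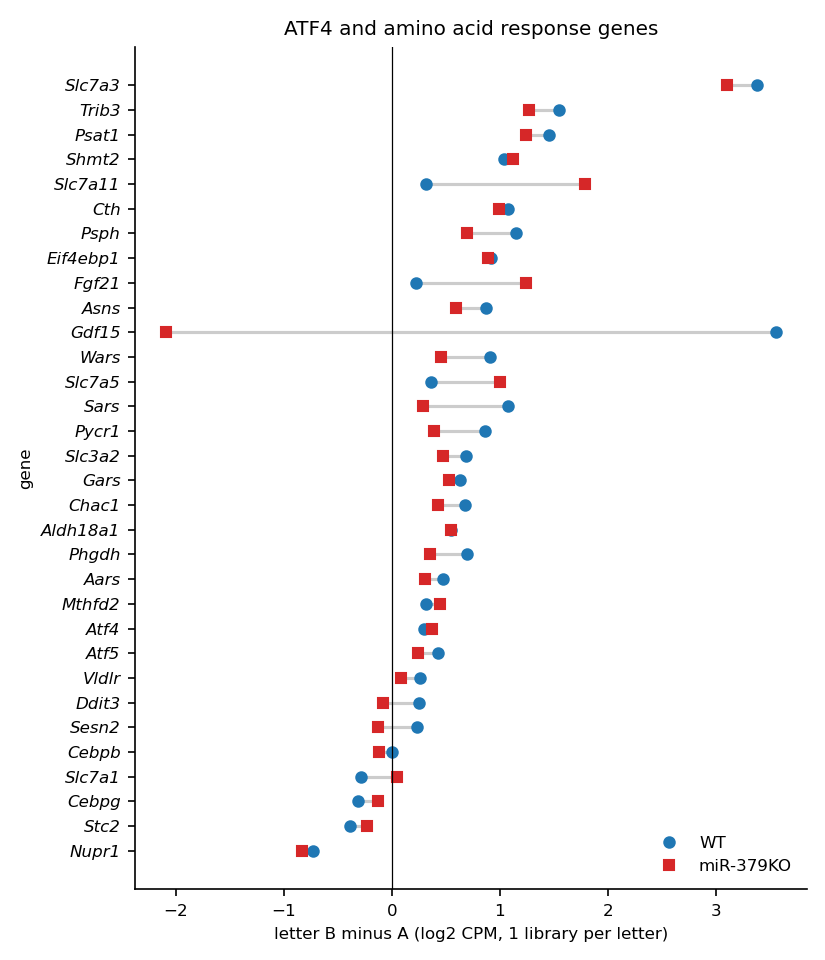
Difference between letters (x axis, log2 CPM) for each of the 32 ATF4 and amino acid response genes (y axis), with WT as circles and miR-379KO as squares, 1 library per letter. Most pairs lie close together and right of 0, Gdf15 is split to 3.56 and −2.09, and Nupr1 lies left of 0 in both.

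The members led with transport and synthesis of amino acids. Slc7a3, a cationic amino acid transporter, had 13 and 166 counts in WT A then B against 12 and 90 in miR-379KO. Both B libraries were thus above both A libraries, with differences of 3.38 (95% counting interval 2.74 to 4.49) and 3.10 (2.47 to 4.35). Psat1, of serine synthesis, had 118 and 324 CPM in WT A then B against 128 and 302 in miR-379KO, a letter effect of 1.35 ± 0.20 (SE, edgeR adjusted p-value 0.779). The A libraries were alike across genotypes and so were the B libraries. Psph, the last enzyme of that pathway, differed by 1.15 in WT and 0.70 in miR-379KO, and Shmt2, the mitochondrial serine hydroxymethyltransferase, by 1.04 and 1.12. Cth, of cysteine synthesis, differed by 1.07 and 0.99.

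Stress regulators of the same list were mixed. Trib3, a pseudokinase that ATF4 induces, had 25.4 and 74.3 CPM in WT A then B against 22.4 and 54.2 in miR-379KO, a letter effect of 1.41 ± 0.22 (SE, adjusted p-value 0.779). Eif4ebp1, the inhibitor of cap-dependent translation, differed by 0.92 and 0.89. The Atf4 mRNA itself differed by 0.30 and 0.37, and Ddit3, which encodes CHOP, by 0.25 and −0.08. Nupr1 lay the other way, with 366 and 221 CPM in WT A then B against 350 and 197 in miR-379KO. Gdf15, a secreted stress factor that p53 also induces, had 13.7 and 162 CPM in WT against 100 and 23.4 in miR-379KO, so its genotypes were opposed. Adm2, outside the list and named by the size of its change, differed by 2.20 and 2.10.

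ATF4 binds CARE elements, searched here as TGATGNAA on both strands from 250 bases before to 50 bases after each annotated gene start. A match was present in the promoters of 10 of 27 ATF4 list genes that had one in RefSeq (37.0%) and of 262 of 9825 tested genes (2.67%). The list was compiled as known ATF4 targets, so its share is not independent of the factor. Among the genes higher in B in both genotypes 9 of 130 promoters held it (6.92%), and among those lower in both 3 of 191 (1.57%). The genes higher in both include 8 of the ATF4 list, so their share is not independent of that list. The sequences below are shown because they let the element be compared between members that moved differently, with the match in capitals and 20 bases on each side, read 5′ to 3′ on the strand of the gene in GRCm38.p6.
Trib3, chr2:152344019-152344066, minus strand: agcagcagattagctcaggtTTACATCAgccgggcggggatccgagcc
Chac1, chr2:119351029-119351076, plus strand: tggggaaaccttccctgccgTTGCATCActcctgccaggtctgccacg
Asns, chr6:7693205-7693252, minus strand: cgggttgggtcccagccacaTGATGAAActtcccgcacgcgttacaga
Slc7a11, chr3:50443652-50443699, minus strand: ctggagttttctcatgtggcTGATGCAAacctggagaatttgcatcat
Nupr1, chr7:126625553-126625600, minus strand: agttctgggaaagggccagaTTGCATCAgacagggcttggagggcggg

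Trib3, Asns and Chac1 were higher in B in both genotypes, at 1.54 and 1.27 for Trib3, 0.87 and 0.59 for Asns and 0.67 and 0.43 for Chac1. Slc7a11, the cystine transporter, differed by 0.32 in WT and 1.79 in miR-379KO. The right flank of its sequence holds a further match, on the opposite strand, which is left in lower case above. Nupr1 was lower in B in both although its promoter window carried a match, so a match did not mark the direction.

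Cytosolic ribosomal proteins were also mostly higher in B in both genotypes. Of 90 entries 82 passed the filter, with medians of 0.70 in WT and 0.55 in miR-379KO. The interquartile range was 0.61 to 0.90 in WT, compared with 0.49 to 0.61 in miR-379KO. At 1.5-fold 63 were higher and 1 lower in WT, against 14.7% and 17.7% of all genes. In miR-379KO 33 were higher and 0 lower, against 5.96% and 9.39%, and 29 were higher in both, against 1.54%. DESeq2 gave an adjusted p-value to 617 of 12321 genes, and 20 of its 34 calls were members. The share of members among those 617 was not counted. In the edgeR test, an unadjusted p-value under 0.05 in the higher direction was reached by 66 of 82, against 3.37% of all genes. Without the block, 69 had such a p-value with all libraries, 9 without WT A, 42 without WT B, 70 without miR-379KO A and 5 without miR-379KO B.

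Rps14, of the small subunit, had 291 and 616 CPM in WT A then B against 434 and 694 in miR-379KO. Rpl13a, of the large subunit, had 513 and 1117 CPM in WT against 781 and 1192 in miR-379KO. In both genes each B library lay above each A library, and WT A was the lowest. Rps12 (0.36 and 0.85) and Rpl41 (0.71 and 0.78) differed at least as much in miR-379KO. Entries for pseudogenes and copies such as Rpl14-ps1 and Rps4l are uncertain, since reads shared by near-identical genes cannot be assigned.

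The length of the transcript moved with the difference between letters, most of all in WT. Ribosomal protein genes have a median exon length of 808 bases against 3761 over all tested genes. In the quintile of shortest genes the median difference was 0.39 in WT and 0.13 in miR-379KO, and in that of the longest −0.38 and −0.07. By GC content, the lowest quintile lay at −0.42 in WT and the highest at 0.23, whereas in miR-379KO these were 0.04 and −0.01. With a correction for exon GC content and length the ribosomal medians were 0.31 in WT and 0.38 in miR-379KO, 11 and 3 members were higher by 1.5-fold and 32 had an unadjusted p-value under 0.05. The ATF4 list, with a median exon length of 2411.5 bases, had medians of 0.36 and 0.38 under the correction, and 15 members in place of 17 had such a p-value.

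**Figure D3:**
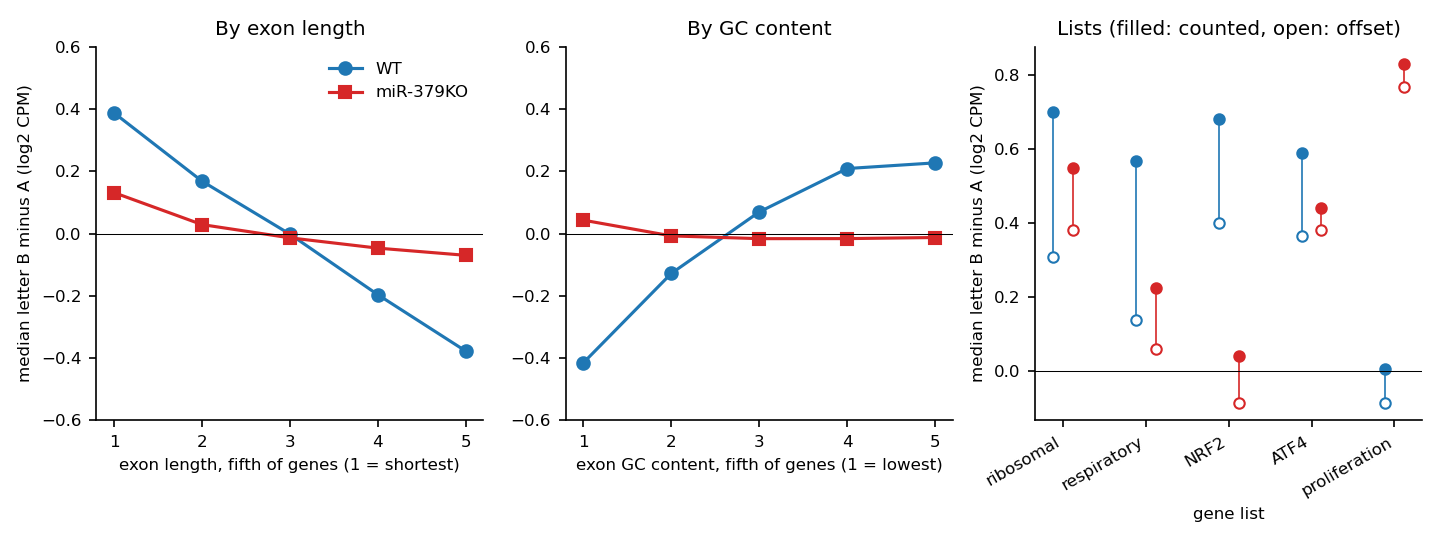
Median difference between letters (y axis, log2 CPM) by quintile of exon length (left) and of exon GC content (middle) in WT and miR-379KO, and medians of 5 gene lists as counted (filled) and with the correction for exon GC content and length (open, right). WT differences run from 0.39 to −0.38 from the shortest to the longest quintile, and the ribosomal and respiratory chain medians come closer to 0 with the correction.

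Among other genes higher in both B libraries, Krt19, a keratin of simple epithelia, had 72 and 635 counts in WT A then B against 196 and 625 in miR-379KO, with a letter effect of 2.54 ± 0.31 (SE, edgeR adjusted p-value 0.779). Cdsn, which encodes corneodesmosin, a cell adhesion protein of cornified epithelium, had 78 and 492 counts in WT against 151 and 443 in miR-379KO. In both genes the lower B library lay above the higher A library. Igfbp6, which binds insulin-like growth factors, differed by 3.20 and 1.35, and Adcyap1r1, the PACAP receptor, by 1.49 and 2.20. Fbln2, a fibulin of basement membrane and elastic matrix, had 513 and 1392 CPM in WT A then B against 516 and 1055 in miR-379KO.

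Among genes lower in both B libraries, Oxtr, the oxytocin receptor, had 165 and 52 counts in WT A then B against 240 and 55 in miR-379KO. Pgr, the progesterone receptor, differed by −2.16 and −1.34, and the ligand Bmp2 by −1.61 and −1.43. The actin-associated Synpo, listed here as a podocyte marker, had 516 and 195 CPM in WT against 477 and 252 in miR-379KO. For each of these genes both B libraries lay below both A libraries. Plekhg1 had 170, 4, 208 and 49 counts in WT A, WT B, miR-379KO A and miR-379KO B, and Clic5 had 277, 17, 673 and 182. P3h2, Fam78b, Arhgef26 and the lysosomal phospholipase Pla2g15 followed, with differences between −3.24 and −0.98.

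The largest opposed differences were of epithelial genes, high in WT B and miR-379KO A and near 0 in WT A and miR-379KO B. Krt18, a keratin of simple epithelia, had 2, 201, 138 and 7 counts in WT A, WT B, miR-379KO A and miR-379KO B. Its partner Krt8 had 0, 77, 47 and 0 counts, at least 23.6-fold higher in WT B and at least 11.6-fold lower in miR-379KO B against a floor of 3 counts in the library at 0. Cdh16, the kidney-specific cadherin, had 9, 368, 304 and 21 counts. Counting intervals for Krt18 were 4.66 to 9.58 in WT and −5.21 to −2.79 in miR-379KO. They cover counting error alone, not variation between cultures, and Krt18 was named for the size of its opposed change.

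Of the 11 tubular epithelial markers listed, 6 passed the filter. Opposed at 1.5-fold with WT B higher were 4, against 3.96% of all genes. The list medians were 4.53 in WT and −2.05 in miR-379KO. With Krt8 at its bound these medians were 4.32 and −2.05. Lrp2, the endocytic receptor megalin of the proximal tubule, had 24, 472, 298 and 127 counts. Not all defining markers took part. Slc34a1 and Umod had 0 counts in each library, Aqp2 and Epcam at most 2 and Cdh1 at most 14, Pax8 was even at 78.4 to 111 CPM, and Aqp1 was high in miR-379KO B alone (66, 100, 71 and 611 counts). The summed level of the 11 markers was 117, 172, 128 and 124 CPM in WT A, WT B, miR-379KO A and miR-379KO B, most of it Pax8.

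**Figure D4:**
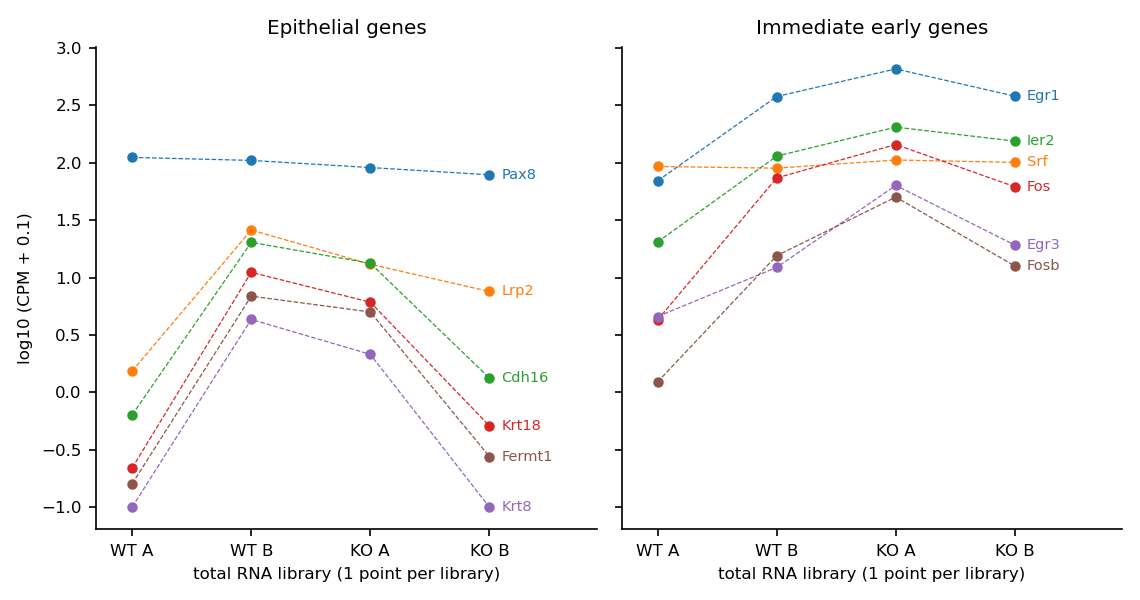
Level in each total RNA library (x axis) as log10 of CPM plus 0.1 (y axis), for epithelial genes (left) and immediate early genes (right), with dashes joining the points of a gene. Krt8, Krt18, Cdh16 and Fermt1 are high in WT B and miR-379KO A alone, Pax8 and Srf are even, and the other immediate early genes shown are lowest in WT A and highest in miR-379KO A.

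Genes outside the list shared the pattern. Fermt1, the epithelial kindlin, had 1, 124, 113 and 3 counts, the potassium channel Kcnk5 had 3, 219, 159 and 8, and the ligand Wnt7b had 4, 120, 73 and 4. Counting intervals were wide on the low side, for example 4.33 to 12.15 for Fermt1 in WT. Leukocyte markers were low but ordered alike, as Lyz2 had 0, 17, 44 and 0 counts and Csf1r 19, 50, 40 and 17, and the summed level of 9 markers lay between 1.97 CPM in WT A and 6.08 CPM in WT B. Their part in the other differences was not tested.

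Immediate early genes were also opposed in many cases. Of 28 tested, 17 were higher and 3 lower in WT B at 1.5-fold, and 1 was higher and 12 lower in miR-379KO B, with medians of 0.93 and −0.43. Over all genes these shares were 14.7%, 17.7%, 5.96% and 9.39%. Opposed with WT B higher were 11 of 28, against 3.96% of all genes. With the correction for exon GC content and length 13 were higher in WT B and the medians were 0.55 and −0.49. Fos had 4.18 and 73.6 CPM in WT A then B against 144 and 61.7 in miR-379KO. Fosb had 1.13, 15.4, 50.1 and 12.5 CPM and Egr1 69.4, 377, 656 and 380 CPM in the same order. Unlike the keratins, these genes were at like levels in WT B and miR-379KO B, so WT A was the low library and miR-379KO A the high one. Srf, the factor that binds many of their promoters, was even at 89.5 to 106 CPM, and Nr4a2 lay the other way (−1.37 and 0.75).

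ERK feedback inhibitors and EGFR ligands held opposed members too. Of 22 tested, 7 were opposed with WT B higher (3.96% of all genes), and the medians were 0.41 and −0.38. The phosphatase Dusp2 differed by 3.10 and −1.33, the EGFR inhibitor Errfi1 by 1.53 and −1.17, and the cytokines Il11 and Lif by 1.48 and −1.44 and by 1.58 and −1.02. Of 23 tested p53 targets 4 were opposed, among them Perp with 19, 332, 245 and 36 counts. Of 22 YAP-TEAD targets 4 were higher and 8 lower in WT B at 1.5-fold, against 14.7% and 17.7% of all genes. Below 0 in both genotypes were 12 of the 22, against 3474 of all 12321 genes. Opposed with WT B higher were 3, against 3.96% of all genes. They included the coagulation factor receptor F3 at 2.03 and −1.42 and the ecto-nucleotidase Nt5e at 3.02 and −2.07. Rgs5, a pericyte marker, differed by 1.90 and −1.89, and the matrix protein Spp1 by 1.53 and −1.91.

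Opposed genes that were lower in WT B were fewer. Foxa1, a forkhead factor, had 203, 43, 91 and 138 counts in WT A, WT B, miR-379KO A and miR-379KO B. Col11a1, a fibrillar collagen, had 288 and 117 CPM in WT against 83.5 and 178 in miR-379KO. Adcy7 and Slc43a3 differed by −1.52 and −1.34 in WT and by 1.11 and 1.33 in miR-379KO, and Cmklr1 had 53, 28, 36 and 100 counts.

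Differences seen in WT alone were mostly lower in B. At 2-fold or more in WT and within 0.32 of 0 on the log2 scale in miR-379KO, 355 genes (2.88% of tested genes) were lower and 120 (0.974%) higher in WT B. With the correction for exon GC content and length these counts were 204 and 109. Myocd, the smooth muscle coactivator myocardin, had 6.02 and 0.657 CPM in WT A then B, while miR-379KO B had 4.41 CPM and differed from its A library by −0.18. The sialyltransferase gene St3gal6 had 87 and 5 counts in WT against 133 and 92 in miR-379KO, and Smoc1, a matricellular protein, 261 and 46 against 200 and 151. In each of the 3 genes WT B was the lowest library. C1ra of the complement pathway (−2.96), the protease Prss12 (−2.36) and the lysophosphatidic acid receptor Lpar4 (−2.29) followed in WT, and these lay between −0.15 and −0.07 in miR-379KO.

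Matrix genes were more often lower than higher in WT B. Of 38 tested collagens and matrix proteins, 18 were lower and 4 higher in WT B at 1.5-fold (17.7% and 14.7% of all genes), against 6 lower and 9 higher in miR-379KO B (9.39% and 5.96%), and the medians were −0.50 and 0.03. Only 1 of the 38, Lox, was lower in WT alone by the rule above (2.88% of all genes). Col1a2, a chain of type I collagen, had 2432 and 609 CPM in WT A then B against 1557 and 2196 in miR-379KO, whereas its partner chain Col1a1 differed by 0.21 and 0.92. The proteoglycan Bgn had 704 and 114 CPM in WT against 504 and 635 in miR-379KO. Dcn, a related proteoglycan, was lower in both genotypes, with 140 and 13 counts in WT against 278 and 75 in miR-379KO. Lox, which cross-links collagen, differed by −1.63 and −0.30, and Mmp2, the type IV collagenase, by −1.49 and 0.01. The chemokine Cxcl12 had 724 and 97.6 CPM in WT against 350 and 457 in miR-379KO. WT B was the lowest library for Col1a2, Bgn, Mmp2 and Cxcl12.

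Among genes higher in WT B alone, Ror2, a Wnt5a receptor, had 11 and 225 counts in WT A then B against 42 and 27 in miR-379KO. Ptgis, prostacyclin synthase, had 22 and 292 counts in WT against 231 and 186 in miR-379KO, so here WT A was the low library. Cdh3, P-cadherin, had 65 and 599 counts in WT against 190 and 142 in miR-379KO. Eps8, Ugt1a7c and Sh3tc2 differed by 1.87 to 2.86 in WT and by −0.31 to −0.12 in miR-379KO.

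Redox genes were mostly higher in WT B, and respiratory genes were mostly higher in both B libraries, with larger differences in WT. Of 25 NRF2, redox and metallothionein genes, 16 were higher and 0 lower in WT B at 1.5-fold (14.7% and 17.7% of all genes), against 1 higher and 3 lower in miR-379KO B (5.96% and 9.39%), with medians of 0.68 and 0.04. Nqo1, a quinone reductase and classic NRF2 target, had 32 and 180 counts in WT against 147 and 159 in miR-379KO. Of 76 tested respiratory chain subunits, 37 were higher and 0 lower in WT B at 1.5-fold, against 0 higher and 1 lower in miR-379KO B, with medians of 0.57 and 0.22. Above 0 were 71 of 76 in WT and 70 of 76 in miR-379KO, and 66 in both. Sdhb of complex II had 54.9 and 116 CPM in WT A then B against 95.6 and 117 in miR-379KO, and Cox4i1 of complex IV 133 and 262 against 214 and 283, with WT A lowest in both. Respiratory chain genes have a median exon length of 999.5 bases, and with the correction for exon GC content and length 3 and 0 members were higher and the medians were 0.14 and 0.06. With that correction 6 NRF2 genes were higher in WT B and the medians were 0.40 and −0.09.

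In miR-379KO, proliferation genes were higher in B throughout. All 43 listed genes were tested and all 43 were above 0, with a median of 0.83 and an interquartile range of 0.69 to 0.91. At 1.5-fold or more 37 of them were higher, against 5.96% of all genes. In WT the median was 0.00, and 1 member was higher and 7 lower, against 14.7% and 17.7% of all genes. Mcm5, of the replicative helicase, had 38.5 and 57.0 CPM in WT A then B against 41.5 and 105 in miR-379KO. Bub1, a mitotic checkpoint kinase, had 45.3 and 29.7 CPM in WT against 24.8 and 55.2 in miR-379KO, and Mki67 had 275 and 128 against 112 and 203. Bub1 and Mki67 were thus lower in B in WT and higher in B in miR-379KO. In all, 6 members were opposed at 1.5-fold with WT B lower, against 1.02% of all genes. Cenpf, a centromere protein, differed by −1.57 and 0.63.

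Other genes differed in miR-379KO alone, 58 (0.471% of tested genes) higher and 77 (0.625%) lower in B. Syk, a tyrosine kinase of immune receptor signalling, had 111 and 128 counts in WT A then B against 97 and 463 in miR-379KO. Rgs16, a regulator of G protein signalling, had 607 and 643 counts in WT against 4869 and 624 in miR-379KO, so miR-379KO A was the high library. Hmgb2, a chromatin protein of dividing cells, had 54.4 and 47.6 CPM in WT against 32.8 and 83.4 in miR-379KO. Rtkn2, Cbr2 and Mtfr2 differed by 1.41 to 1.74 in miR-379KO, and Frmd4b, Ildr2, Gas1, Parp14 and Fry by −2.04 to −1.52.

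Mesangial and pericyte markers varied without a common direction, with medians of −0.33 in WT and −0.19 in miR-379KO over 11 tested genes. Des, the muscle intermediate filament desmin, had 107 and 790 CPM in WT A then B against 217 and 132 in miR-379KO. Foxd1, a factor of stromal progenitors, differed by −2.61 and −0.77, Pdgfrb, the receptor that marks pericytes, by −0.83 and −0.68, and Serpine2 by −0.97 and −1.02. The 24 contractile genes had medians of 0.32 and −0.19, with Cnn1, calponin, at 1.22 and −0.49. All 4 podocyte markers tested were below 0 in both genotypes, with medians of −0.98 and −0.63, and Wt1, a podocyte transcription factor, differed by −1.69 and −0.34.

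The remaining pathway lists had medians between −0.44 and 0.22 in both genotypes. Interferon-stimulated genes had medians of −0.21 in WT and −0.40 in miR-379KO over 30 tested genes, and 26 of 30 were below 0 in miR-379KO. Lysosome genes had 0.20 and −0.24, with 23 of 25 below 0 in miR-379KO, and sterol and fatty acid synthesis genes −0.15 and 0.20, with 31 of 34 above 0 in miR-379KO. Glycolysis and hypoxia genes had 0.22 and −0.01 and heat shock genes 0.14 and 0.06. With the correction for exon GC content and length the sign turned for lysosome (−0.03) and sterol genes (0.01) in WT and for heat shock genes in miR-379KO (−0.02). ER chaperones of the unfolded protein response, the branch of stress signalling beside ATF4, had −0.02 and 0.04, with 1 member higher in WT B and 0 in miR-379KO B. TGF-beta pathway genes had −0.23 and −0.27, YAP-TEAD targets −0.34 and −0.26, matrix proteases −0.05 and −0.28, p53 targets 0.10 and −0.27, chemokines and NF-kB genes −0.05 and −0.18, and FoxO and IGF axis genes −0.33 and −0.06. Replication-dependent histones, clock genes and imprinted genes lay between −0.44 and 0.02, and single Y-linked genes between −0.72 and 0.08, with Kdm5d at −0.06 and −0.02. Of the endothelial list 1 gene was tested (−0.59 and −0.99), the 2 fibroblast markers had medians of −0.57 and −0.89, and the 3 adipocyte markers 0.998 and 0.490.

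**Figure D5:**
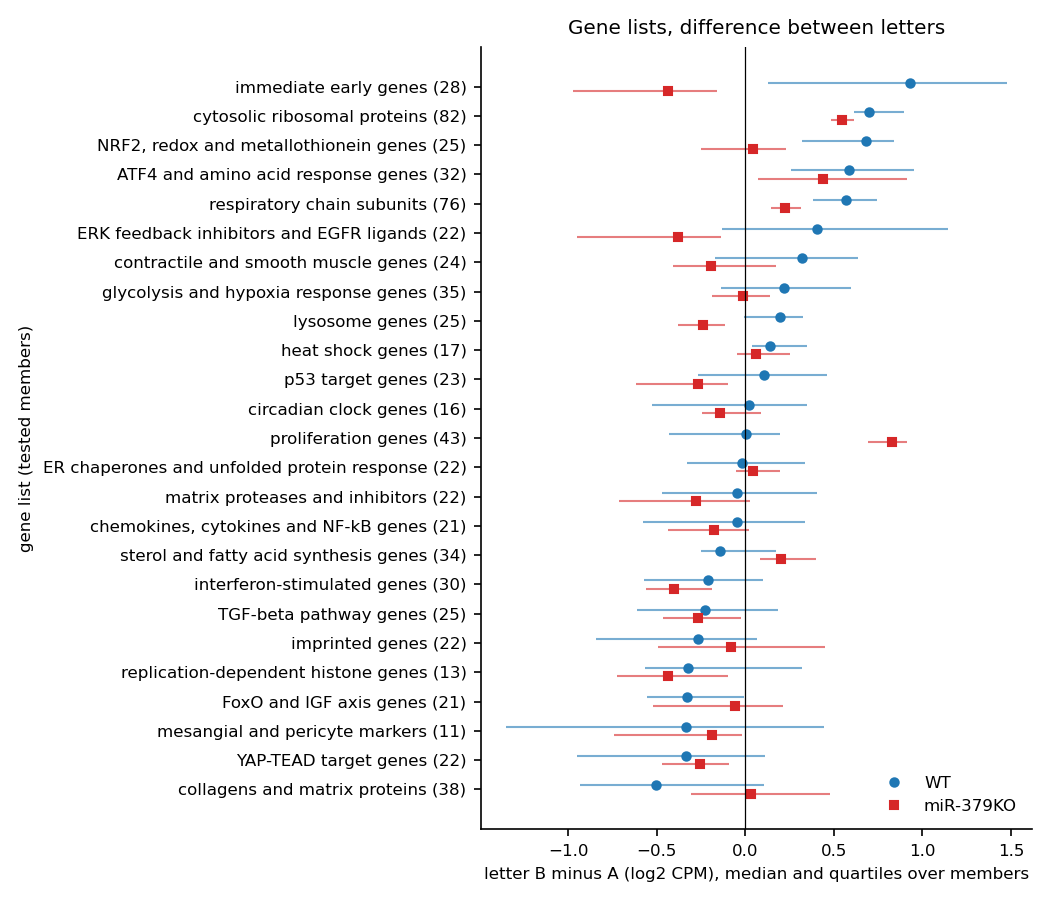
Median (point) and quartiles (line) over members of the difference between letters (x axis, log2 CPM) for each gene list with at least 10 tested members (y axis, number tested in brackets), in WT and miR-379KO. Ribosomal protein and ATF4 genes lie right of 0 in both, immediate early genes are split between genotypes, and proliferation genes lie at 0.83 in miR-379KO and 0.00 in WT.

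AGO2-IP libraries of the same letters gave a second readout of the same genes, made by another protocol, from cultures not stated to be the same, and with 5587611 to 17095021 gene counts, of which Rn45s took 72.2% to 80.5%. Genes with a mean under 20 counts in them were not used. Of the 651 genes higher in WT B total RNA 148 remained. Their median AGO2-IP difference was 0.44 in WT (109 above 0, 39 below) and −0.09 in miR-379KO. Of the 727 lower in WT B 477 remained, with −0.24 in WT (341 below 0, 136 above) and −0.06 in miR-379KO. Over 8563 genes the medians were 0.04 and −0.08, with 4603 above 0 and 3960 below in WT. In miR-379KO 3567 of them lay above 0 and 4996 below. Des (2.69), Igfbp5 (3.18), Cdsn (2.31), Cxcl12 (−1.76), Synpo (−1.77) and Bgn (−1.32) differed in WT AGO2-IP in the direction of WT total RNA. Col11a1 did not follow, at −1.30 in WT total RNA and 0.29 in WT AGO2-IP.

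The AGO2-IP libraries of miR-379KO followed total RNA for some lists. Proliferation genes had a median of 0.54 in miR-379KO AGO2-IP (37 of 39 above 0) and −0.01 in WT. ATF4 list genes had 0.60 in WT AGO2-IP (27 of 30 above 0) but −0.14 in miR-379KO (9 of 30 above 0), and ribosomal protein genes 0.12 and −0.18. Genes lower in B in both genotypes had −0.53 in WT AGO2-IP (91 of 109 below 0) and −0.08 in miR-379KO. For both the ATF4 and the ribosomal list, the higher level in miR-379KO B was thus not seen in AGO2-IP. Of the 11 tubular epithelial markers 2 had enough AGO2-IP counts, so the pattern of that list could not be followed there. Of the 488 opposed genes higher in WT B 98 had enough. Their medians were 0.14 in WT AGO2-IP (53 above 0, 45 below) and −0.05 in miR-379KO (38 above, 60 below). Of the 126 opposed genes lower in WT B 85 had enough, with −0.20 in WT (35 above 0, 50 below) and 0.36 in miR-379KO (72 above, 13 below).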

How the data were processed

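The deposited values are counts of whole reads per gene, which the authors had not normalized. The methods describe a stranded kit with poly(A) selection for total RNA, and reads, single-end or paired-end, were aligned to mm10 with TopHat and counted on RefSeq genes with HTSeq. AGO2-IP reads were paired-end, and the layout of each total RNA library was not given in the sources used here. Closing rows of each list that name no gene were left out. Per library, 76.2% to 80.2% of listed total RNA reads were in genes.

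Groups and letters came from the sample titles. The letter was tested in edgeR 4.0.16 (R 4.3.3) with genotype as a block (TMM, filterByExpr with a minimum count of 10, robust quasi-likelihood F test, Benjamini-Hochberg adjustment). Within a genotype, with 1 library per letter, log2 CPM with a prior count of 2 was subtracted, without a test, and intervals are exact (Clopper-Pearson, 95%) and cover counting error only. p-values measure the spread between these samples, which may be technical. The fit was tested on simulated data that held no opposed differences between letters. That test therefore does not show how the fit behaves with the opposed genes found here.

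Genes were named by rule: per class and direction the 6 largest changes among genes that averaged 50 counts or more and had a symbol that is no clone name, and the 6 smallest p-values, plus the 5 largest WT and 3 largest miR-379KO changes of each list. Other list members (such as Atf4, Srf and Krt8), Igfbp5 and the sequences shown were chosen after their values were seen. Some genes that the rule takes are not reported here. The samples, the 25 gene lists and the 7 marker lists were chosen with earlier results of these data known. Letters are shared by both genotypes, and the deviations of same-letter libraries correlated at −0.21 (Pearson) and 0.10 (Spearman) across genes, so the sign depends on the measure and the letters were not taken to pair them. Symbols matched RefSeq (GRCm38.p6) for 24511 of 24639 entries. Promoter sequences are RefSeq's, found for 9825 of 12321 tested genes. Alternatives were RLE factors, TMM without the 20 most abundant genes, no filter, a minimum mean of 50 counts, a correction for exon GC content and length (an offset from lowess, span 0.3), a prior count of 0.5, DESeq2 1.42.0, voom in limma 3.58.1, no block, omission of each library and crossed letters. Counts per list under these alternatives were added after the data were seen.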

Additional observations from a re-analysis of the deposited data

Results flagged for a closer look

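Genes and lists were singled out where the letter difference had opposite signs in WT and miR-379KO at 1.5-fold or more in each. With 1 library per letter and genotype, the difference between genotypes was not tested, and the letters need not correspond. There were 488 such genes higher in WT B and 126 lower in WT B. Medians were 4.53 in WT and −2.05 in miR-379KO for tubular epithelial markers, and 1.20 and −0.74 for the 3 leukocyte markers tested.

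In WT the named genes differed by 5.37 (Fermt1), 5.40 (Kcnk5), 5.62 (Krt18), 4.98 (Cdh16) and 4.27 (Wnt7b), values that depend on the prior count where WT A was at or near 0. On the lower side Foxa1 differed by −2.31, Adcy7 by −1.52, Slc43a3 by −1.34, Col11a1 by −1.30 and Cmklr1 by −0.996.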

How the results depend on the processing

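The absence of calls for the letter held with RLE factors, with TMM factors computed without 20 abundant genes, a minimum mean of 50 counts, the correction for exon GC content and length, limma voom and no replicate block (0 calls each, with 1124 genes at an unadjusted p-value under 0.05 without the block). Without the filter on low counts 7 genes passed, and with DESeq2 34. With 1 library left out and no block, calls ran from 0 to 197 (197 without miR-379KO B, 21 without WT B), and genes at the study's cutoff from 292 (without WT A) to 2043 (without miR-379KO A), with 1024 without miR-379KO B, against 594. The Pearson correlation of same-letter libraries was negative (−0.21) and the Spearman correlation was not (0.10), and crossing the letters (WT B with miR-379KO A) gave 146 calls, of which 144 were opposed genes higher in WT B.

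Without the filter, genes past 2-fold numbered 2397 in WT and 1407 in miR-379KO, shared genes 815, opposed genes 1175 and WT-only genes 804, against 1378, 736, 458, 614 and 475. A minimum mean of 50 counts gave 867, 346, 282 and 346 for the first 4, and 74 in place of 120 genes higher in WT alone. Genes that differed in miR-379KO alone, 58 higher and 77 lower, became 126 and 177 without the filter and 37 and 26 with that minimum. These settings change the number of genes tested. The correction gave 392 genes at the study's cutoff and 313 WT-only genes, and turned Ddx3y in WT to 0.16. Causes of the shifts with DESeq2, the correction and single libraries were not tested. Genes lower in WT alone numbered 204 in place of 355 with the correction. Of list medians, the correction also turned those of lysosome (−0.03), sterol (0.01), proliferation (−0.09) and sex-linked genes (0.33) in WT and of NRF2 (−0.09) and heat shock genes (−0.02) in miR-379KO. Without the filter those of chemokines (0.23), fibroblast markers (0.33) and ER chaperones (0.05) turned in WT, as did, within rounding of 0, those of proliferation genes in WT and collagens in miR-379KO. The fits rest on 1 residual degree of freedom, and low genes on few counts.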
